A study of Mus musculus with 6 samples.

Results

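Retinoic acid is made from vitamin A within tissues and acts on genes through nuclear receptors. Retinol is carried in blood by the protein that Rbp4 encodes, Rdh10 oxidizes it to retinaldehyde, Dhrs3 reduces retinaldehyde back to retinol, and the Aldh1a enzymes turn retinaldehyde into retinoic acid. The Crabp proteins bind retinoic acid in the cytoplasm, and enzymes of the Cyp26 family, Cyp26b1 among them, oxidize it to inactive forms. In the adult brain the meninges and a few groups of neurons are known to make retinoic acid, and Cyp26b1 is known to be expressed in neurons of the amygdala, hippocampus and cortex.

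The genes described are 9 that encode steps of retinoic acid synthesis, binding and degradation, chosen by name. Of these 9, 7 are among the 13886 genes in the deposited table. These are Rdh10, Dhrs3, Aldh1a1, Aldh1a2, Rbp4, Crabp2 and Cyp26b1. Aldh1a3 and Crabp1 are not listed, and since the table keeps only genes that passed the authors' minimum, their levels are not known. The set was put together after Cyp26b1 was known to be lower with estradiol (E2) in these libraries, so the members' differences between treatments are given as a description.

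Ribosome-bound RNA was isolated from the medial amygdala (MeA) of Kiss1Cre+/Rpl22HA+/+ female mice, in which Cre driven by Kiss1 adds an HA tag to the ribosomal protein Rpl22, and 4 brains were pooled for each library. All females, in both groups, had their ovaries removed (OVX) at the age of 8 weeks and were given E2 for 4 days to drive Cre and then left 7 days without it. The OVX group (n = 3 libraries) received nothing further, and the E2 group (n = 3 libraries) received E2 for 5 days. Only immunoprecipitated libraries were analysed here, so no level can be set against that of the whole MeA punch, and in pooled tissue fewer cells of a type and less RNA per cell cannot be told apart.

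Scaled sizes ran from 28.1M to 34.2M reads over the 6 libraries and overlapped between the groups. Kiss1, the gene that defines the cells, is listed as 2 gene models, and their summed level was 3.25 to 4.91 counts per 1000000 reads (CPM) in OVX and 17.2 to 23.0 CPM in E2 libraries. All 5 neuronal markers examined were listed, with a summed level of 4130 to 4422 CPM in OVX and 4141 to 4541 CPM in E2 libraries. Markers of other cells were listed too, namely 8 of 8 for astrocytes, 6 of 6 for oligodendrocytes, microglia, vessels and choroid plexus, and 7 of 8 for fibroblasts and meninges.

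Cyp26b1 (ENSMUSG00000063415, GRCm38 chromosome 6 from 84571414 to 84593908, minus strand), the degradation enzyme, was lower in E2-treated than in OVX females, at 63.9% of the OVX level. Its log2 CPM was 5.79, 5.49 and 5.31 in OVX replicates 1, 2 and 3 and 4.71, 4.87 and 5.08 in E2 replicates 1, 2 and 3. Each E2 library was below each OVX library, and the gap between the lowest OVX and the highest E2 library was smaller than the range within either group. The mean was 5.53 ± 0.24 (SD, n = 3) without and 4.88 ± 0.18 (SD, n = 3) with E2, a log2 difference of -0.65 (SE 0.12). The values rested on 790 to 1562 rebuilt reads per library. Ordered from the most negative log2 difference, Cyp26b1 was number 127 of the 13886 genes.

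To show the region from which Cyp26b1 is transcribed, the bases upstream of the first annotated start are printed from RefSeq (GRCm38.p6, chr6:84593909-84594060, minus strand, 5′ to 3′). The capitals mark the letters TATAAA, which begin 41 bases before that start.
Cyp26b1: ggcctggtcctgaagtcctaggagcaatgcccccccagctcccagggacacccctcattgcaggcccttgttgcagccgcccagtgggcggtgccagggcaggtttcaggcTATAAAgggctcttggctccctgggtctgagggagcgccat
TATAAA, read on the sense strand only, was in 8.32% of the 32851 promoter windows of 300 bases in the RefSeq table. Windows were found for 5 of the 7 listed members, 9 in all, and Rbp4 was the other member with these letters. The half-site AGGTCA, which retinoic acid and estrogen receptors both recognize, was in 16.3% of all windows on either strand and in 0 of the 9 member windows. The full estrogen response element, searched as GGTCA and TGACC with any 3 bases between them, was in 0.0700% of all windows and in 0 of the 9, which says only that these letters are not in these windows.

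In the limma fit over all genes, 1 of the 7 listed members had an adjusted p under 0.05 between the treatments, Cyp26b1 at 0.0469. This compares with 0.288% of all genes in either direction and 0.0576% in the lower direction. The set was built around the Cyp26b1 call, so the count is no evidence about the set. The adjusted p-values of the other 6 ran from 0.263 to 0.980 in the limma fit over all genes. The E2 and OVX libraries did not overlap for 3 of the 7, against 13.7% of all genes (6.82% lower and 6.85% higher). Of these members, Cyp26b1 and Rbp4 were lower and Aldh1a1 was higher with E2. Cyp26b1 was in the set because it was lower, so this count is no evidence about the set either. The median difference of the 7 was 0.04, with 4 above and 3 below 0, and that of all genes was 0.00343, with 51.1% above 0.

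**Figure D1:**
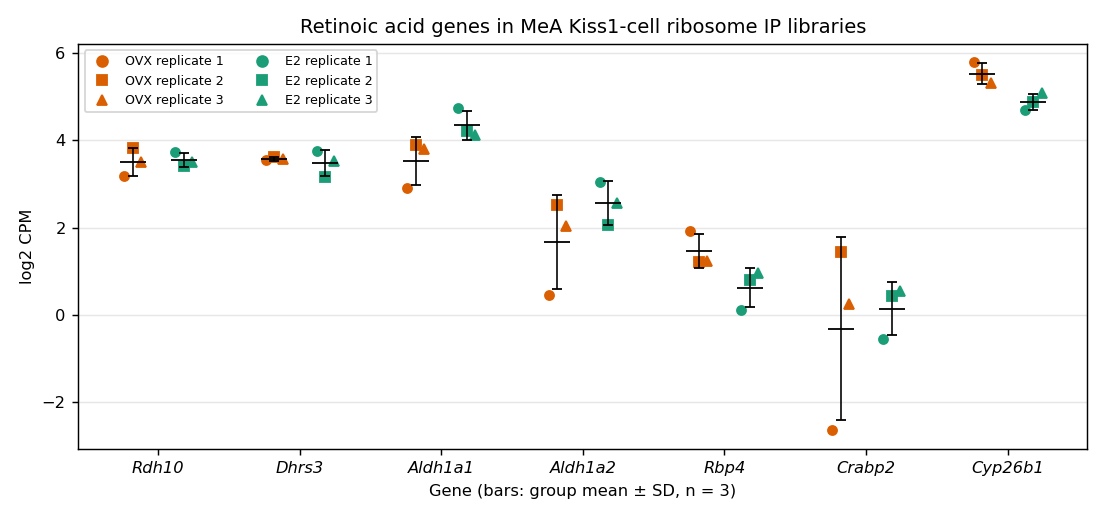
Log2 CPM of the 7 listed genes in each of the 6 libraries, OVX in orange and E2 in green, with the symbol giving the replicate and black bars the group mean ± SD (n = 3). The groups are apart for Aldh1a1, Rbp4 and Cyp26b1. OVX replicate 1 is the lowest point of Rdh10, Aldh1a1, Aldh1a2 and Crabp2 and the highest of Rbp4 and Cyp26b1.

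The members that make retinoic acid were described next. Aldh1a1 (ENSMUSG00000053279, chromosome 19 from 20492715 to 20643465) encodes a retinaldehyde dehydrogenase also known from midbrain dopamine neurons. Its log2 CPM was 2.90, 3.89 and 3.79 in OVX replicates 1, 2 and 3 and 4.73, 4.20 and 4.11 in E2 replicates 1, 2 and 3. All 3 E2 libraries were above all 3 OVX libraries. The mean was 3.53 ± 0.55 (SD, n = 3) without and 4.35 ± 0.33 (SD, n = 3) with E2, and the log2 difference of 0.82 (SE 0.23) was not past the threshold over all genes. Its rebuilt reads, 211 to 803 per library, were not whole numbers, unlike those of the other members, so some reads were divided between Aldh1a1 and another locus by RSEM and its values are uncertain to that extent. The close paralog Aldh1a7 is not listed.

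Aldh1a2 (ENSMUSG00000013584, chromosome 9 from 71215789 to 71296243) encodes the main retinaldehyde dehydrogenase of the meninges. Its log2 CPM was 0.45, 2.52 and 2.03 in OVX replicates 1, 2 and 3 and 3.05, 2.05 and 2.56 in E2 replicates 1, 2 and 3. The groups overlapped, and OVX replicate 1, with 38 rebuilt reads, stood below the other 5 libraries, which had 114 to 251. The log2 difference was 0.89 (SE 0.43) with all libraries and 0.28 (SE 0.29) without OVX replicate 1. The corresponding value for Aldh1a1 without that library was 0.51 (SE 0.17).

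Rdh10 (ENSMUSG00000025921, chromosome 1 from 16105774 to 16133734) and Dhrs3 (ENSMUSG00000066026, chromosome 4 from 144892827 to 144928209), which act in opposite directions on retinol and retinaldehyde, differed little between the groups. The log2 CPM of Rdh10 was 3.18, 3.81 and 3.51 in OVX replicates 1, 2 and 3 and 3.73, 3.40 and 3.51 in E2 replicates 1, 2 and 3. Dhrs3 had 3.54, 3.63 and 3.57 in OVX and 3.75, 3.16 and 3.52 in E2 replicates 1, 2 and 3. The groups overlapped for both genes, with a log2 difference of 0.04 (SE 0.17) for Rdh10 and of -0.10 (SE 0.16) for Dhrs3. Per kilobase of transcript, the Rdh10 level divided by the Dhrs3 level averaged 0.626 ± 0.117 (SD, n = 3) without and 0.686 ± 0.0723 (SD, n = 3) with E2.

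Among the binding proteins, Rbp4 (ENSMUSG00000024990, chromosome 19 from 38116629 to 38125281, minus strand) was measured at a log2 CPM of 1.91, 1.22 and 1.24 in OVX replicates 1, 2 and 3 and 0.10, 0.81 and 0.95 in E2 replicates 1, 2 and 3. Each E2 library was below each OVX library, with a log2 difference of -0.84 (SE 0.36). This gene was counted from 32 to 106 rebuilt reads per library. Crabp2 (ENSMUSG00000004885, chromosome 3 from 87948666 to 87953376), which carries retinoic acid to its nuclear receptors, was the lowest member and the most variable. Its log2 CPM was -2.65, 1.44 and 0.25 in OVX replicates 1, 2 and 3 and -0.56, 0.42 and 0.55 in E2 replicates 1, 2 and 3, and the groups overlapped. OVX replicate 1 had 4 rebuilt reads and OVX replicate 2 had 92, the lowest and the highest of the 6. The log2 difference of 0.46 (SE 0.83) became -0.71 (SE 0.52) without OVX replicate 1, so its direction rested on 1 library. The difference was smaller than its SE in the fit of all 6 libraries.

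**Figure D2:**
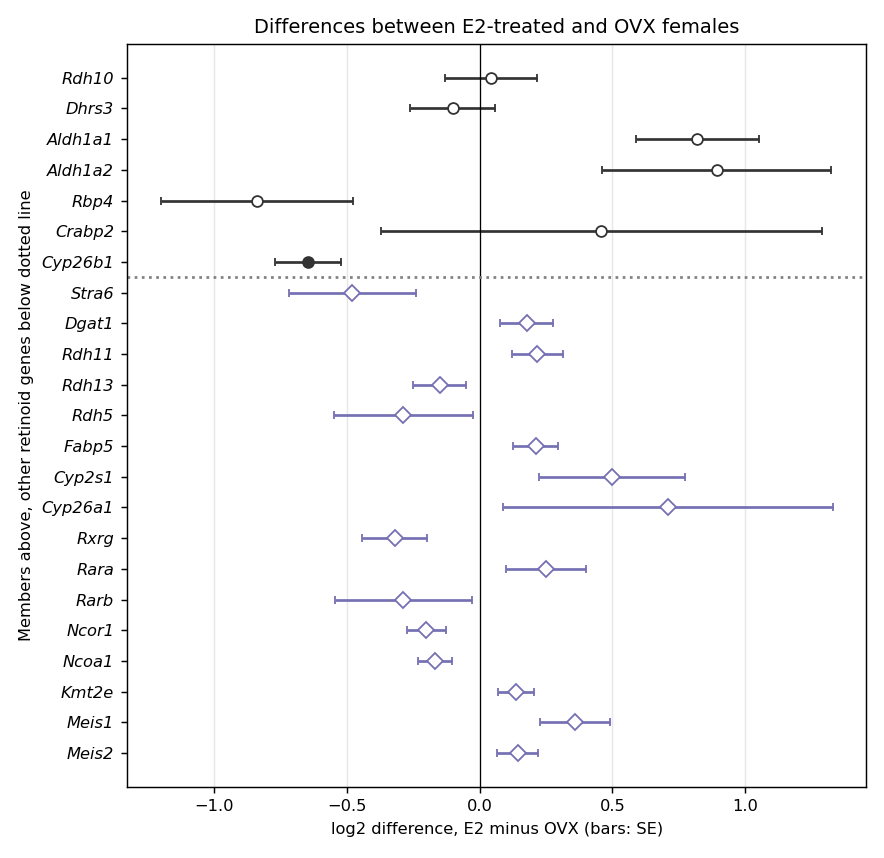
Log2 difference, E2 minus OVX, with its SE, for the 7 members (circles, above the dotted line) and for 16 other genes of retinoid metabolism, retinoid receptors, their coregulators and retinoic acid responsive genes (diamonds). A filled symbol has an adjusted p under 0.05, which holds for Cyp26b1 alone among the genes drawn, and the bars of Aldh1a2, Crabp2 and Cyp26a1 are the widest.

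Levels of different genes were compared per kilobase of the longest annotated transcript. On that log2 scale Cyp26b1 was highest at 3.04, followed by Aldh1a1 at 2.70, Dhrs3 at 2.30, Rdh10 at 1.68, Aldh1a2 at 0.93, Rbp4 at 0.82 and Crabp2 at 0.01. The ranges over the 6 libraries overlapped between each gene and the next in this order. Within libraries, Dhrs3 was above Rdh10 in 6 of 6 and Rdh10 above Aldh1a2 in 6 of 6, though for the latter pair the values in E2 replicate 1 were nearly equal. In the other 4 pairs of neighbours the order turned in at least 1 library, so these did not differ beyond their spread. With the median transcript length, Aldh1a1 came first at 3.41, then Dhrs3 at 3.23 and Cyp26b1 at 3.15, while Rdh10 kept its place. Without regard to length, Cyp26b1 ranked 5792 of the 13886 genes by mean log2 CPM and Crabp2 ranked 13775.

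Synthesis was set against degradation within each library, where library scaling cancels. The summed level of Aldh1a1 and Aldh1a2, divided by the level of Cyp26b1, each per kilobase, was 0.307, 0.880 and 0.873 in OVX replicates 1, 2 and 3 and 2.57, 1.48 and 1.33 in E2 replicates 1, 2 and 3. The ratio was below 1 in all OVX and above 1 in all E2 libraries, with means of 0.687 ± 0.329 (SD, n = 3) and 1.79 ± 0.677 (SD, n = 3). The set was built around Cyp26b1 being lower with E2, so the direction of the ratio is no separate evidence. Both parts of the ratio differed without overlap, which holds for 13.7% of all genes taken singly. The summed synthesis level was 3.77 to 8.83 CPM per kilobase in OVX and 9.64 to 14.9 in E2 libraries. That of Cyp26b1 was 8.80 to 12.3 in OVX and 5.81 to 7.50 in E2 libraries. Where the ratio stands relative to 1 depends on the transcript length used. The share of Aldh1a2 in the summed level was 15.9% in OVX replicate 1 and between 18.9% and 28.6% in the other libraries.

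**Figure D3:**
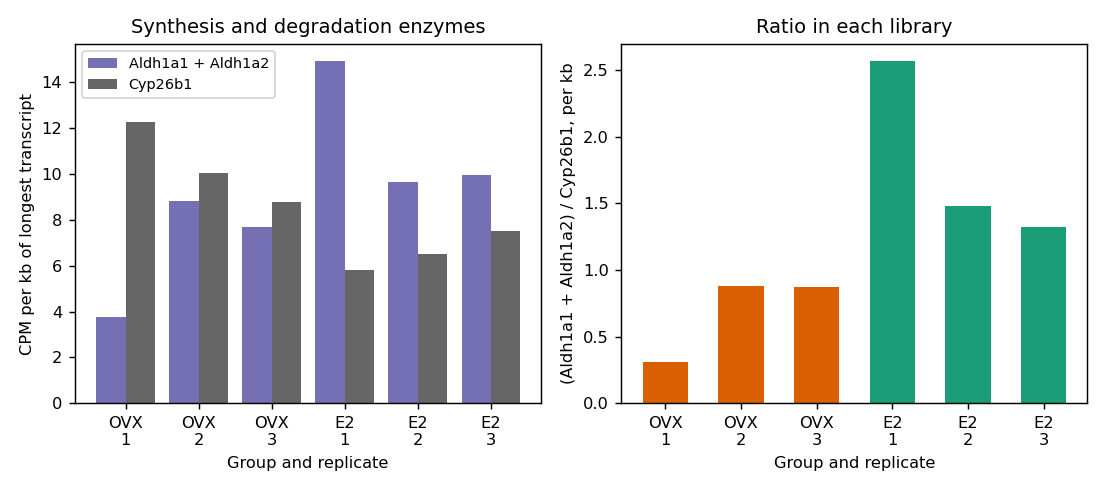
Left, CPM per kilobase of the longest transcript for Aldh1a1 plus Aldh1a2 and for Cyp26b1 in each library. Right, the ratio of the summed synthesis level to Cyp26b1, which is at most 0.880 in OVX and at least 1.33 in E2 libraries.

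Several members varied with lists of cell type markers across the libraries, and the part of such cells in the differences was not tested. Without libraries of the whole punch, it cannot be told whether these markers come from Kiss1 cells or from others. All 7 genes taken as markers of excitatory forebrain neurons, led by the vesicular glutamate transporter Slc17a7, were lower with E2. Over all genes, 51.1% were higher. Of these 7 markers, 0 were past the threshold (0.288% of all genes) and 6 had an unadjusted p under 0.05 (8.56% of all genes). Their summed level was 901 to 1165 CPM in OVX and 683 to 891 CPM in E2 libraries. Over the 6 libraries, Cyp26b1 had a Pearson r of 0.97 with the mean log2 CPM of these 7 genes, and of 0.98 for deviations from the group means. The same forebrain mean had an r of 0.95 with Rbp4 and of -0.94 with Aldh1a1 (0.87 and -0.87 within groups). Cyp26b1 also had an r of -0.96 with the mean log2 CPM of the 2 Kiss1 gene models (-0.80 within groups). The lower of these models averaged a log2 CPM of 0.40 over the libraries. The Kiss1 mean was -1.77, 0.59 and 0.61 in OVX replicates 1, 2 and 3, while the summed Kiss1 level was 4.91, 4.18 and 3.25 CPM. OVX replicate 1 was thus lowest of its group by the mean and highest by the sum, which limits the within-group value. With the forebrain mean as a covariate, the log2 difference of Cyp26b1 was -0.24 (SE 0.12), which is 37.3% of the value without it. That of Aldh1a1 was 0.07 (SE 0.24), and those of Aldh1a2 at -0.18 (SE 0.56) and Rbp4 at -0.13 (SE 0.51) were also nearer to 0. The differences of Rdh10 at -0.25 (SE 0.25), Dhrs3 at -0.16 (SE 0.25) and Crabp2 at -0.93 (SE 1.21) were farther from 0 than without the covariate. The forebrain mean itself differs between the groups.

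Of the marker lists, that of fibroblasts and meninges had the highest correlation with Aldh1a2. Its Pearson r with their mean log2 CPM was 0.95 over the 6 libraries and 0.94 within groups. Their summed level was 35.3, 63.9 and 45.1 CPM in OVX replicates 1, 2 and 3 and 68.7, 49.5 and 65.7 CPM in E2 replicates 1, 2 and 3, and OVX replicate 1 was lowest here as it was for Aldh1a2. Of the 7 listed genes, 6 were higher with E2, against 51.1% of all genes, and 1, the collagen gene Col1a1, passed the threshold, against 0.288% of all genes (log2 difference 1.18, SE 0.22, adjusted p = 0.0469). Lum is not listed. With the mean of this list as a covariate the log2 difference was 0.24 (SE 0.28) for Aldh1a2, 0.50 (SE 0.17) for Aldh1a1 and -0.55 (SE 0.13) for Cyp26b1. Rdh10, whose groups overlapped, had a within-group r of 0.99 with the same list.

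**Figure D4:**
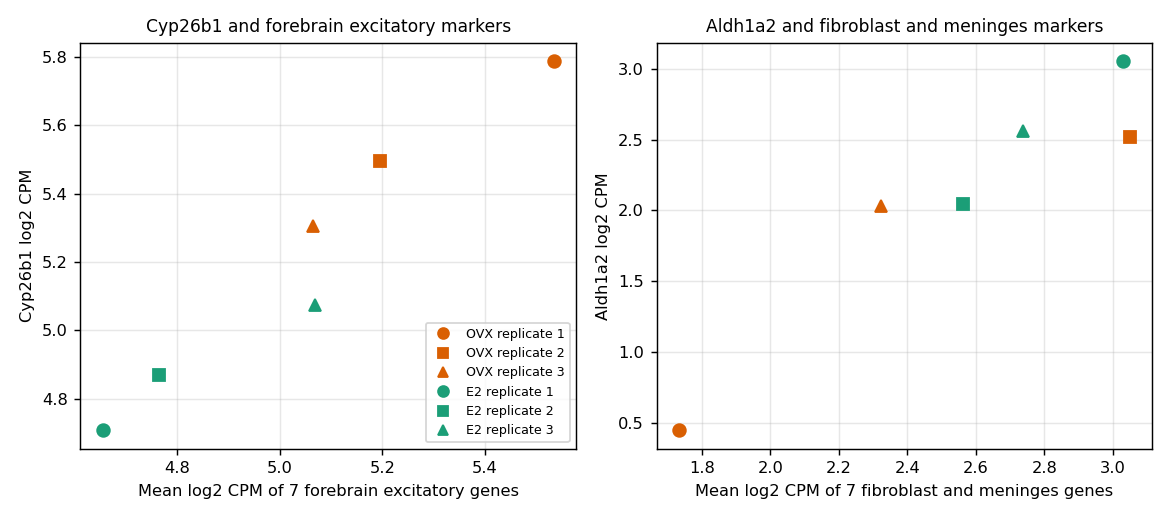
Each point is 1 library. Left, Cyp26b1 log2 CPM against the mean log2 CPM of 7 forebrain excitatory genes (r = 0.97), and right, Aldh1a2 against the mean of 7 fibroblast and meninges genes (r = 0.95), where OVX replicate 1 lies lowest on both axes.

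Of the 4 midbrain dopamine neuron markers, Th and Slc6a3 were listed, with a summed level of 4.46 to 7.52 CPM in OVX and 5.72 to 8.39 CPM in E2 libraries, and Pitx3 and En1 were not. The summed astrocyte markers were at 626 to 814 CPM in OVX and 723 to 918 CPM in E2 libraries, and the choroid plexus markers at 690 to 1078 and 395 to 1019 CPM. All 6 choroid plexus markers were lower with E2, while 51.1% of all genes were higher, and their median log2 difference was -0.52. Of these 6 markers, 0 were past the threshold (0.288% of all genes) and 2 had an unadjusted p under 0.05 (8.56% of all genes). Dhrs3 had a Pearson r of 0.92 with their mean log2 CPM over the 6 libraries and within groups, and their part in its values was not tested.

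Among the members, Aldh1a1 and Aldh1a2 varied together over the 6 libraries (r = 0.93, and 0.94 within groups), while Aldh1a1 ran opposite to Cyp26b1 (r = -0.94, and -0.88 within groups). Rbp4 followed Cyp26b1 (r = 0.95, and 0.89 within groups). These are descriptions over 6 points that share a scaling. Of 10630 other genes with a mean log2 CPM of at least 3, those with the pattern most like Cyp26b1 were Cdk5r1 (r = 0.998), ENSMUSG00000116358 (0.992), Cd24a (0.992), Ap2a2 (0.988) and Syngr1 (0.988). By deviations from the group means they were Tent2 (0.997), Enho (0.996), Tsen15 (0.994), Cdk5r1 (0.994) and Btaf1 (0.992). Cdk5r1, the activator of the neuronal kinase Cdk5, was in both, with a log2 difference of -0.15 (adjusted p = 0.429).

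The wider retinoid pathway was examined with 56 further genes in 6 lists, of which 39 are listed in the table. In limma 0 of the 39 were past the threshold, with 6 at an unadjusted p under 0.05, against 8.56% of all genes, and a smallest adjusted p of 0.429. With voom weights and under each other alternative the count was also 0. The median difference was -0.03, with 17 genes higher and 22 lower with E2, and the groups did not overlap for 8 of the 39, against 13.7% of all genes.

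All 6 nuclear receptors of the pathway were listed. The retinoid X receptors, which pair with retinoic acid receptors and with other nuclear receptors, had mean log2 CPM values of 6.40 for Rxrb, 4.86 for Rxra and 4.78 for Rxrg. The retinoic acid receptors had 3.24 for Rara, 2.87 for Rarg and 1.84 for Rarb. Per kilobase of the longest transcript on the log2 scale, the order was Rxrb at 5.01, Rxrg at 3.70, Rxra at 2.57, Rara at 1.49, Rarg at 1.31 and Rarb at 0.20.

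The receptor with the smallest p was Rxrg, whose log2 CPM was 5.04, 5.07 and 4.71 in OVX replicates 1, 2 and 3 and 4.41, 4.75 and 4.71 in E2 replicates 1, 2 and 3. The groups overlapped, and the log2 difference was -0.32 (SE 0.12, adjusted p = 0.454). Rara had 3.12, 3.10 and 3.15 in OVX and 3.24, 3.53 and 3.33 in E2 libraries, without overlap, and a log2 difference of 0.25 (SE 0.15, adjusted p = 0.711). Rarb, itself a target of retinoic acid, had an E2 minus OVX value of -0.29 on the log2 scale (SE 0.26, adjusted p = 0.832).

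Of the 12 genes of retinol uptake, transport and storage, 7 were listed and 0 passed the threshold. Stra6, the membrane receptor for the Rbp4 protein, had a log2 difference of -0.48 (SE 0.24, adjusted p = 0.611), and Dgat1, which can esterify retinol, had 0.18 (SE 0.10, adjusted p = 0.688). Ttr, which encodes the partner of Rbp4 in blood and is the leading gene of the choroid plexus, had the highest mean log2 CPM at 9.39, with a log2 difference of -0.40 (SE 0.25, adjusted p = 0.719), and lipoprotein lipase (Lpl) followed at 5.13. The Ttr value was -0.05 without E2 replicate 2 and -0.75 without E2 replicate 1. Lrat, the main retinol esterifying enzyme, is not listed.

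Of the 16 other enzymes of retinol and retinaldehyde, 8 were listed, the highest being Adh5 with a mean log2 CPM of 5.63 and Rdh11 with 4.89. The log2 differences were 0.22 for Rdh11 (SE 0.10, adjusted p = 0.549), -0.15 for Rdh13 (SE 0.10, adjusted p = 0.743) and -0.29 for Rdh5 (SE 0.26, adjusted p = 0.837). The Rdh5 value was -0.0025 without E2 replicate 2 and -0.50 without OVX replicate 3. Of the other genes of degradation and binding, Cyp26c1 is not listed and Cyp26a1, the relative of Cyp26b1 that retinoic acid induces, had a mean log2 CPM of -0.28 and a log2 difference of 0.71 (SE 0.62, adjusted p = 0.821), which was 0.24 without OVX replicate 2 and 1.19 without E2 replicate 2. Fabp5, a fatty acid binding protein that also binds retinoic acid, had 0.21 (SE 0.09, adjusted p = 0.502), and Cyp2s1 had 0.50 (SE 0.28, adjusted p = 0.683).

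Of the 7 coregulators, all were listed and 0 passed the threshold. The corepressor Ncor1 averaged a log2 CPM of 8.10 in OVX and 7.90 in E2 libraries, a log2 difference of -0.20 (SE 0.07, adjusted p = 0.429). The coactivator Ncoa1 had -0.17 (SE 0.06, adjusted p = 0.463), and Kmt2e had 0.14 (SE 0.07, adjusted p = 0.604).

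Among 16 genes known to respond to retinoic acid, 13 were listed, 0 were past the threshold and 1 had an unadjusted p under 0.05, against 8.56% of all genes. Their median log2 difference was 0.05, with 7 higher and 6 lower with E2. The highest were Nrgn (neurogranin), with a mean log2 CPM of 10.53, and the homeodomain gene Meis2, with 7.43. Meis1, of the same family, was at a log2 CPM of 5.19, 5.40 and 5.72 in OVX replicates 1, 2 and 3 and 5.67, 6.08 and 5.63 in E2 replicates 1, 2 and 3, with a log2 difference of 0.36 (SE 0.13, adjusted p = 0.433). The log2 difference of Meis2 was 0.14 (SE 0.08, adjusted p = 0.664).

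Whether the Cyp26b1 difference passed the threshold depended on the processing and on single libraries. The adjusted p rose above 0.05 without OVX replicate 1 (0.209), without OVX replicate 2 (0.0659), without E2 replicate 1 (0.189) and without E2 replicate 2 (0.164). It was 0.0244 without OVX replicate 3 and 0.0274 without E2 replicate 3. The difference was below 0 in each of the 16 alternatives, from -0.76 to -0.24.

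**Figure D5:**
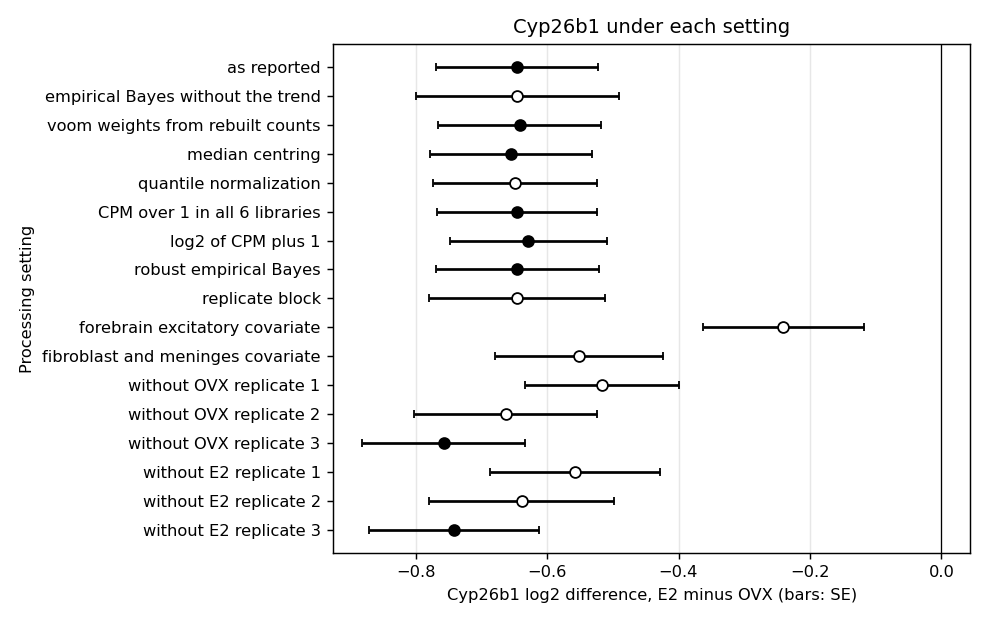
Log2 difference of Cyp26b1, E2 minus OVX, with its SE, as reported and under 16 alternatives. Filled points have an adjusted p under 0.05, which holds for the reported value and for 7 alternatives, and the value nearest to 0, -0.24, comes with the forebrain excitatory covariate.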

How the data were processed

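RNA-seq was performed on immunoprecipitated RNA of 3 OVX and 3 E2 pools. The authors trimmed reads (Trimmomatic 0.38), aligned them (STAR 2.6.0a) and quantified them with RSEM on GRCm38 with Ensembl annotation. They kept genes above a CPM minimum, by their account within protein-coding regions, and deposited TMM-scaled log2 CPM values from voom. The unstranded kit cannot separate overlapping genes, and the exons of the 7 listed members overlap 0 bases of other annotated genes. The authors' second table holds their own fold changes, statistics and p-values and was not used. The limma fit was tested on simulated data whose changes were larger than that of Cyp26b1, so differences of its size were not covered. E2 and OVX libraries were compared with limma 3.58.1 in R 4.3.3 (mean-variance trend, treatment as the only term, two-sided, Benjamini-Hochberg over 13886 genes, threshold 0.05). The median SE was 0.11, and an exact permutation of 3 against 3 libraries cannot give a p below 0.1. Each library is 1 pool of 4 brains, so p-values measure the spread between pools.

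Read numbers were rebuilt on the assumption that the smallest log2 CPM in a library stands for 0 reads plus the voom offset of 0.5. Positions and transcript lengths are from GENCODE M21 (GRCm38), another release than the authors' on the same assembly. Members, gene lists and tests were chosen with earlier results of these data known. Besides the members, each other list gives the 3 genes with the smallest p and the 2 with the highest mean, all receptors, and the genes most like Cyp26b1. A gene that this rule names is not reported here. Lum, Col1a1, Slc17a7, Lrat, Cyp26c1, Aldh1a7 and the dopamine markers were named after their values were seen.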

Additional observations from a re-analysis of the deposited data

How the results depend on the processing

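In the 39 further retinoid genes the count past the threshold was 0 under each alternative run. For the 7 members it was 1 as reported and 0 without the mean-variance trend, with quantile normalization, with the replicate block and with either covariate, and it ran from 0 to 1 with 1 library left out. The Cyp26b1 difference was then -0.65 without the trend (adjusted p = 0.551), -0.65 with quantile normalization (0.0534), -0.65 with the replicate block (0.108), -0.24 with the forebrain excitatory covariate (0.9999) and -0.55 with the fibroblast and meninges covariate (0.167), which was chosen after the data were examined. With 1 library left out it ran from -0.76 to -0.52. Same-numbered libraries did not deviate together (correlations -0.02, -0.12 and -0.08) and share only a number, and the block moved the calls over all genes from 40 to 35. Over all genes 0 were past the threshold without the trend (1188 at an unadjusted p under 0.05 with it), 2 with the forebrain and 22 with the fibroblast covariate, and 20 to 66 with 1 library left out. Fabp5 turned to -0.0021 with the forebrain covariate. For the order of levels, 2 of the 7 members kept their place with the median transcript length and 7 without length correction. Crabp2 and Cyp26a1 fell under the filter on CPM in all 6 libraries and had no value there. Counts of 4 to 106 reads limit Crabp2 and Rbp4.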
